A study of Mus musculus with 2 samples.

Results

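The genes examined encode enzymes that turn arachidonic acid into leukotrienes and prostaglandins, with the membrane protein that serves the first of them. The 10 genes were taken by symbol from a list (Alox5, Alox5ap, Lta4h, Ltc4s, Alox12, Alox15, Ptgs1, Ptgs2, Tbxas1 and Hpgds), by a rule that uses no measured value, out of 43346 annotated genes, and all 10 were found in the tables. They were measured in poly(A)-selected, paired-end RNA-seq libraries of primary mouse megakaryocyte-erythroid progenitors (MEP), bone marrow cells known to give rise to red cells and to platelet-forming megakaryocytes. The mice are labelled adult female C57BL/6J aged 5 weeks, with no treatment or genetic change named, and a label gives the cells as CD34- and names lineage markers and CD16/32. The series has 1 group with biological replicates 1 and 2, which are separate biosamples carrying the same donor identifier, so no condition is compared. Nothing says that they came from separate animals, and the spread between them may be partly technical.

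Leukotrienes and prostaglandins are lipid mediators made from arachidonic acid after phospholipases release it from membranes. The lipoxygenase arm starts with 5-lipoxygenase (Alox5), which works with its activating protein FLAP (Alox5ap) to make leukotriene A4, and Lta4h or Ltc4s then turns this into leukotriene B4 or C4. In the cyclooxygenase arm Ptgs1 and Ptgs2 make prostaglandin H2, from which Tbxas1 makes thromboxane A2, the platelet-activating mediator, and Hpgds makes prostaglandin D2, a product of mast cells.

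Estimated counts (fragments assigned to genes, called reads here) came to 79539457 for replicate 1 and 65305321 for replicate 2. No reads for a gene still allows up to 3 reads, or 0.0377 and 0.0459 CPM (reads per 1000000), which covers counting error only. Markers of the labelled lineages were present, with 12 of 14 erythroid and 13 of 18 megakaryocyte and platelet genes at 1 TPM (transcripts per 1000000, scaled for length) or more in both libraries. All 17 granulocyte and monocyte markers were also detected at that level, and their summed level was 33838 TPM in replicate 1 and 19876 TPM in replicate 2, against 265 and 424 TPM for the megakaryocyte and platelet list and 1477 and 2453 TPM for the erythroid list. Mpo, the neutrophil myeloperoxidase, was at 10136 and 6523 TPM, Prtn3 at 10600 and 5185 TPM and Elane at 8624 and 4337 TPM, and these neutrophil granule genes carry most of the granulocyte and monocyte sum. The globin genes Hba-a1 (498 and 878 TPM) and Hbb-bs (280 and 713 TPM) were the highest of the erythroid list. On coding transcripts Hba-a1 was at only 6.29 and 7.46 TPM and Hbb-bs at 2.04 and 7.97 TPM. By summed TPM, granulocyte and monocyte markers thus exceeded those of the lineages named in the label, in both libraries. How pure the sorted cells were could not be checked from these tables. Detected in both were also 7 of 8 B cell, 1 of 7 T and NK cell and 6 of 9 stem cell markers. In such bulk RNA, fewer cells of a type and less RNA per cell cannot be told apart.

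The order of the members was led by one gene of the leukotriene arm. A TPM of 1 or more in both libraries was reached by 6 of 10 members (Lta4h, Alox5ap, Ptgs1, Tbxas1, Ltc4s and Alox5), beside 46.9% of 21474 protein-coding genes, and the other 4 (Alox15, Ptgs2, Alox12 and Hpgds) were below 1 in both. The median over the 10 members was 5.57 TPM in replicate 1 and 8.39 TPM in replicate 2, while that over all protein-coding genes was 0.67 and 0.75 TPM. Protein-coding genes at 1 TPM or more in both libraries had a median mean of 16.4 TPM, above every member but Lta4h and Alox5ap. Lta4h alone held 74.6% and 75.9% of the members' summed TPM, in libraries where that sum was 411.79 and 283.91 TPM. The sum in replicate 1 includes 52.21 TPM from 11.1 reads on a short Alox5ap transcript, described below, so the closeness of these shares depends on it. Of the members' reads, Lta4h held 90.2% and 84.0%.

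**Figure D1:**
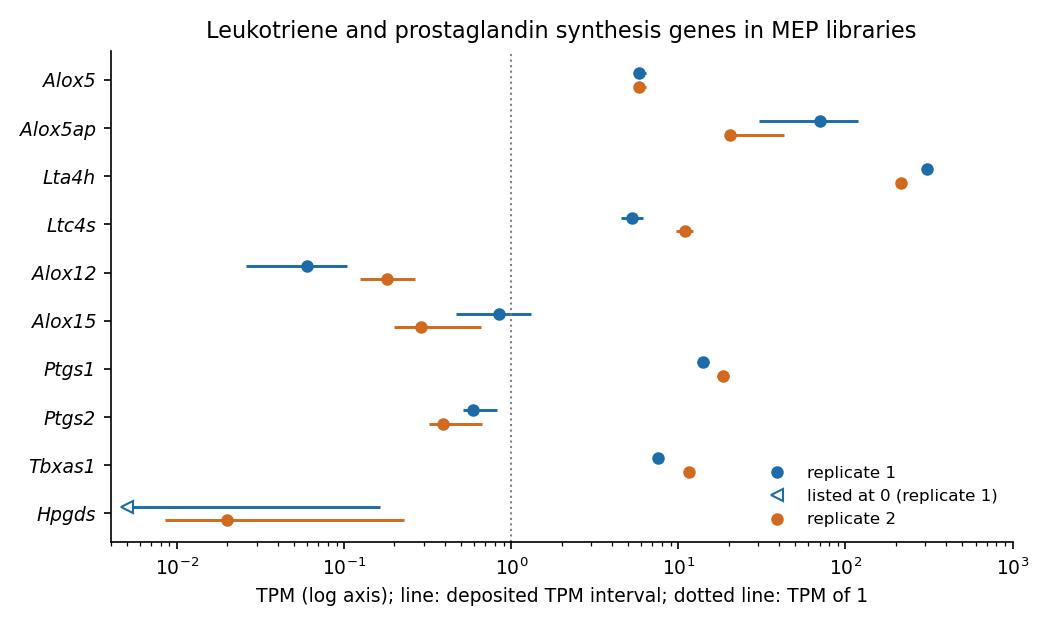
Deposited TPM of each member (log axis) in replicate 1 (blue) and replicate 2 (orange), with lines for the TPM interval the authors deposited and a dotted line at a TPM of 1. Lta4h stands highest at 307.01 and 215.60 TPM, and Alox12, Alox15, Ptgs2 and Hpgds lie left of the dotted line in both libraries.

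The 5-lipoxygenase arm had its gene for the first enzyme at a low and even level. Alox5 (ENSMUSG00000025701.8, GRCm38 chr6:116410077-116461178, minus strand) was at 5.84 and 5.80 TPM (5.82 ± 0.0283, SD, n = 2), from 1015 and 848 reads. The values overlapped within their deposited intervals of 5.44 to 6.41 and 5.49 to 6.36 TPM. The protein-coding transcript Alox5-201 carried 88.6% ± 0.677 (SD, n = 2) of its TPM, and the remainder came from transcripts annotated as retained introns, chiefly Alox5-204 at 0.38 and 0.69 TPM.

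Alox5ap, which encodes FLAP, the membrane protein that presents arachidonic acid to 5-lipoxygenase, had similar read counts but unequal TPM. Alox5ap (ENSMUSG00000060063.6, chr5:149264767-149288153, plus strand) had 880 and 764 reads, a log2 difference of -0.02 in scaled CPM (replicate 1 to replicate 2). Its TPM was 70.64 in replicate 1 and 20.42 in replicate 2 (45.5 ± 35.5, SD, n = 2), with overlapping intervals of 30.3 to 119 and 18.9 to 42.8 TPM. The gap in TPM lay in a single short transcript of 125 bases, which is not in GENCODE M21. That transcript was given 11.1 reads in replicate 1 and 0 in replicate 2, and with an effective length of 3.21 bases (the positions at which a fragment could start) its 11.1 reads became 52.21 TPM, 73.9% of the gene's level. The full-length coding transcript Alox5ap-201 was at 18.44 and 20.42 TPM, so the libraries lay close together on the transcript that encodes FLAP. On coding transcripts Alox5 stood below Alox5ap by a log2 ratio of -1.91 ± 0.12 (SD, n = 2). By gene TPM the ratio was -2.70 ± 1.26, and in reads not corrected for length it was 0.18.

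Lta4h, the hydrolase that makes leukotriene B4, a neutrophil attractant, was the most abundant member in both libraries. Lta4h (ENSMUSG00000015889.7, chr10:93453411-93484875, plus strand) was at 307.01 and 215.60 TPM (261 ± 64.6, SD, n = 2), at percentile 97.3 of protein-coding genes. It had 39140 and 21909 reads, all on the only transcript listed for it. The gene was 1.53-fold higher in replicate 1 in scaled CPM. That difference was larger in size than that of 88.7% of protein-coding genes with a mean of at least 1 TPM. The granulocyte and monocyte markers, genes of cells that make leukotriene B4, were higher in replicate 1 for 16 of 17, with a median log2 difference of 0.49 in scaled CPM. The B cell markers were higher in replicate 1 for 7 of 7, with a median log2 difference of 0.88 and summed levels of 102.8 and 47.3 TPM. The part of either list in the Lta4h difference was not tested. The deposited TPM of Lta4h lay above its own interval in both libraries (301 to 307 and 210 to 215), which belongs to a different estimate, the posterior mean.

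Ltc4s, the synthase that joins leukotriene A4 to glutathione, was higher in replicate 2. Ltc4s (ENSMUSG00000020377.10, chr11:50236461-50238616, minus strand) had 177 and 293 reads and was at 5.30 and 10.98 TPM (8.14 ± 4.02, SD, n = 2). The intervals, 4.55 to 6.11 and 9.72 to 12.2 TPM, did not overlap. The difference was 1.92-fold in scaled CPM, larger in size than that of 96.7% of genes, and 2.07-fold in TPM. All its TPM was on coding transcripts, with 97.4% and 100% on Ltc4s-202. Ltc4s overlaps the antisense gene Gm26542, which had 100 and 141 reads, and whether the counting kept the strands apart is not given, so the Ltc4s values are uncertain to that extent. Markers of mast cells and basophils, which make leukotriene C4, summed to 166 and 172 TPM with a median log2 difference of 0.03, and 7 of 14 were detected in both libraries. In that list Il4, Tpsab1, Tpsb2 and Mcpt4 had no reads. Its highest genes were Prss34 at 56.93 and 60.37 TPM and Hdc, the histamine-forming enzyme, at 53.80 and 48.03 TPM. Kit followed at 38.80 and 45.40 TPM and is part of the sum. Whether these transcripts came from mast cells and basophils alone was not tested.

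Both branches beyond leukotriene A4 were present, with the hydrolase well above the synthase. The log2 ratio of Lta4h to Ltc4s was 5.07 ± 1.10 (SD, n = 2) in TPM, a 33.7-fold difference, at 5.85 in replicate 1 and 4.29 in replicate 2. The intervals of the pair were separate in each library. Alox5ap stood above Ltc4s, its relative in the same protein family, by 2.31 ± 2.01 on the log2 scale, but only 1.35 ± 0.64 on coding transcripts and 0.89 in replicate 2 alone. Mgst2, a glutathione transferase that can also make leukotriene C4, was at 4.71 and 2.52 TPM. Ltc4s and Mgst2 were not apart by the rule used (same sign in both libraries, mean log2 ratio above 1 in size and separate intervals in each), with a mean log2 ratio of 1.14 ± 1.38. On coding transcripts, judged by sign and size alone, they were apart at 2.13 ± 1.90, and in reads not corrected for length the ratio was -0.056.

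The 12/15-lipoxygenase genes, which make hydroxylated fatty acids and lipoxins in platelets, eosinophils and macrophages, were each below 1 TPM in both libraries. Alox12, the platelet-type enzyme (ENSMUSG00000000320.6, chr11:70241457-70255353, minus strand), had 8 and 27 reads, or 0.06 and 0.18 TPM. Its 8 reads were assigned to Alox12-202 and its 27 reads to Alox12-201, so no transcript was shared between libraries by these counts. The deposited percents from the posterior mean were mixed, with Alox12-201 at 27.5% and 90.7%, so a shared transcript is not excluded. Alox15 (ENSMUSG00000018924.6, chr11:70344152-70352031, minus strand), the enzyme of eosinophils and resident macrophages, had 62 and 30 reads, or 0.84 and 0.29 TPM. In replicate 1, 9.58 of those reads went to the 432-base noncoding transcript Alox15-202 and gave 0.50 TPM, and the coding transcript Alox15-201 was at 0.35 and 0.25 TPM. Alox5 exceeded both, with a log2 ratio of 5.66 ± 1.03 to Alox12 and 3.53 ± 1.06 to Alox15 (0.01 TPM added to each value). With 1 TPM added these ratios were 2.61 ± 0.12 and 2.15 ± 0.36, so their size depends on that choice. Alox12 and Alox15 were not apart (-2.13 ± 2.08, SD, n = 2). That pair was apart on coding transcripts by sign and size alone (-1.41 ± 1.35) and in replicate 1 alone (-3.60). Of the eosinophil markers, 4 of 9 were detected, and the list summed to 74.4 and 80.3 TPM. Its highest genes by gene TPM were Epx (26.44 and 28.80 TPM), Prg2 (17.21 and 25.82 TPM) and Prg3 (18.75 and 14.30 TPM), while Il5ra and Ccr3 had no reads. On coding transcripts Prg3 was at only 1.90 and 3.49 TPM. Of the macrophage markers, 4 of 10 were detected, led by Cd68 at 37.08 and 27.86 TPM and C1qa at 3.94 and 6.14 TPM. Timd4 had no reads.

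The constitutive cyclooxygenase gene Ptgs1 was the third member in mean TPM, but little of its TPM encoded the full protein. Ptgs1 (ENSMUSG00000047250.9, chr2:36230426-36252272, plus strand), which encodes COX-1, the form used by platelets to make thromboxane, had 1000 and 921 reads and was at 13.96 and 18.61 TPM (16.3 ± 3.29, SD, n = 2). The intervals, 12.9 to 15.3 and 17.0 to 20.1 TPM, were separate. Coding transcript Ptgs1-201 was at 3.40 and 3.36 TPM, or 24.4% and 18.1% of the gene, from 612.91 and 483.91 reads. The retained-intron transcript Ptgs1-202, only 697 bases long, had 358.5 and 374.92 reads and 9.72 and 12.83 TPM, a share of 69.3% ± 0.450 (SD, n = 2). Ptgs1 was 1 of the 6 detected members with under 50% of TPM in coding transcripts in both libraries, beside 17.8% of detected protein-coding genes. Alox5ap was under that level in replicate 1 alone. By reads the order was the other way, since Ptgs1-201 held 61.3% and 52.5% of the gene's reads.

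The sequences that separate the Ptgs1 transcripts are shown because the Ptgs1 values turn on them. Ptgs1-202 begins with 288 bases (chr2:36242475-36242762) of an intron of 1808 bases that precedes exon 8 of the 11 exons of Ptgs1-201, then shares 409 bases with Ptgs1-201. The lines give 30 bases on either side of the start of exon 8 (chr2:36242763-36242792, GENCODE M21 transcripts, plus strand). Capitals mark exon 7 (chr2:36240925-36240954) in Ptgs1-201 and retained intron (chr2:36242733-36242762) in Ptgs1-202, and lower case is the same exon 8 in both.
Ptgs1-201: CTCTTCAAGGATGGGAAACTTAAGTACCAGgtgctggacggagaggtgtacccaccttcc
Ptgs1-202: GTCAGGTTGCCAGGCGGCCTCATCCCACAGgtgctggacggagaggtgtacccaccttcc
The deposited tables do not count reads by junction, so whether the intron bases were covered was not tested. Ptgs1 also overlaps Gm43621 on the opposite strand, which has no count here. Whether the counting kept the strands apart is not given.

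**Figure D2:**
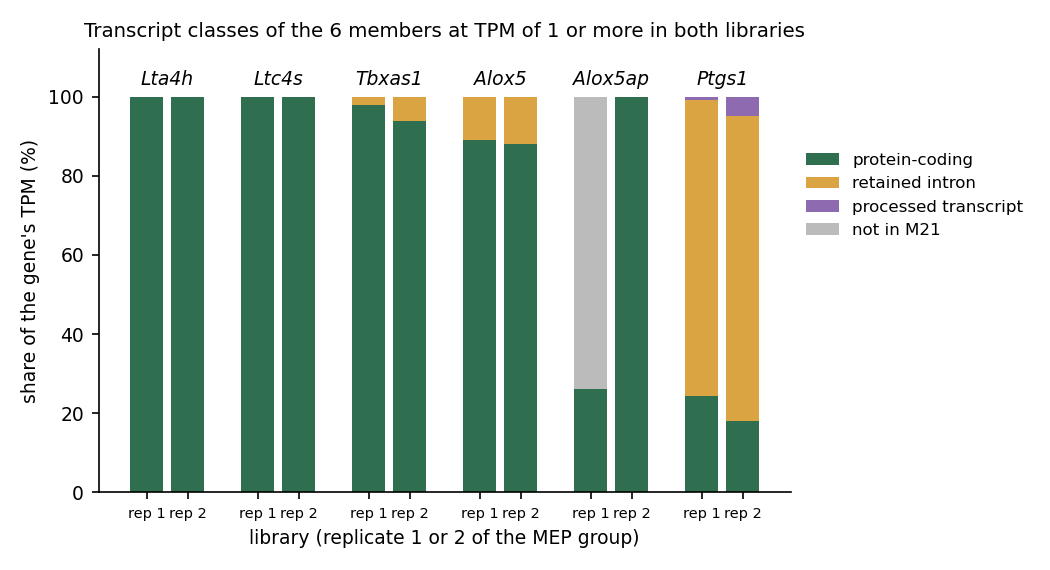
Share of each gene's TPM (%) by the GENCODE M21 class of its transcripts, for the 6 members at 1 TPM or more in both libraries, with 1 bar for each library. Coding transcripts (green) made up 24.4% and 18.1% of Ptgs1, and the transcript that is not in M21 (grey) made up 73.9% of Alox5ap in replicate 1 only.

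Ptgs2, the inducible cyclooxygenase COX-2, was well below Ptgs1. Ptgs2 (ENSMUSG00000032487.8, chr1:150100031-150108227, plus strand) had 168 and 88 reads, or 0.59 and 0.39 TPM (0.49 ± 0.141, SD, n = 2), all on Ptgs2-201. The log2 ratio of Ptgs1 to Ptgs2 was 5.04 ± 0.71 (SD, n = 2) in TPM, a 32.9-fold difference with separate intervals in each library. On coding transcripts it was 2.79 ± 0.40, a 6.92-fold difference, and Ptgs1 was higher in both libraries by either measure. With 1 TPM added to each value in place of 0.01 TPM, the log2 ratio in gene TPM was 3.53 ± 0.41.

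Thromboxane synthase was expressed and prostaglandin D synthase of the blood-cell type was not detectable in replicate 1. Tbxas1 (ENSMUSG00000029925.9, chr6:38875404-39084585, plus strand), the synthase that platelets and macrophages use, had 944 and 1205 reads and was at 7.55 and 11.62 TPM (9.59 ± 2.88, SD, n = 2). The intervals, 7.11 to 8.11 and 10.9 to 12.3 TPM, were separate, and the gene was 1.49-fold higher in replicate 2 in scaled CPM. Coding transcript Tbxas1-201 carried 95.9% ± 2.97 of its TPM. Megakaryocyte and platelet markers were higher in replicate 2 for 13 of 13, with a median log2 difference of -0.45 in scaled CPM. Also higher in replicate 2 were stem and multipotent progenitor markers for 6 of 6 (median -0.47), erythroid markers for 10 of 12 (median -0.22) and macrophage markers for 3 of 4 (median -0.36). The part of these lists in the Tbxas1 and Ltc4s differences was not tested. Itga2b, the platelet integrin that marks the megakaryocyte lineage, was at 114.51 and 211.41 TPM (49.43 and 85.84 TPM on coding transcripts), and Gp6 in the same list had no reads. Tbxas1 overlaps Hipk2 on the opposite strand, which had 9639 and 9851 reads, so reads of the pair may be mixed.

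Hpgds (ENSMUSG00000029919.4, chr6:65117293-65144908, minus strand) had 0 reads in replicate 1 and 3 in replicate 2, or 0 and 0.02 TPM, at or under the counting floor, and no fold is given for it. It was the lowest member in both libraries. Of the cyclooxygenase pair and its thromboxane branch, Ptgs1 exceeded Tbxas1 by a log2 ratio of 0.78 ± 0.15 (SD, n = 2) in gene TPM, short of the rule. On coding transcripts the order turned, with Ptgs1 below Tbxas1 at -1.41 ± 0.41, and in reads not corrected for length the ratio was -0.15.

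**Figure D3:**
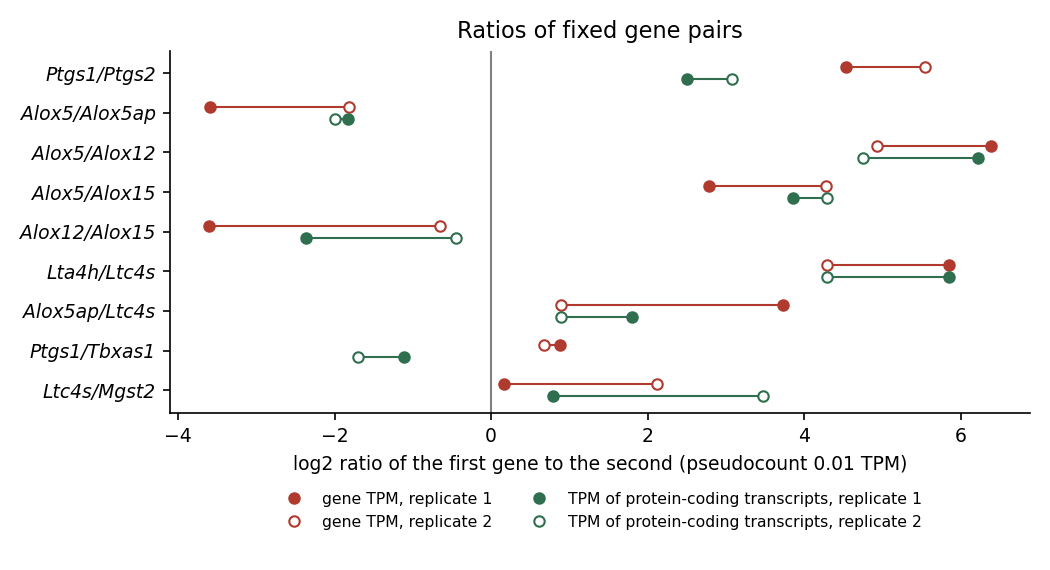
Log2 ratio of the first gene to the second in each of the 9 fixed pairs without Hpgds (pseudocount 0.01 TPM), by gene TPM (red) and by TPM of coding transcripts (green), with filled points for replicate 1 and open points for replicate 2. Ptgs1/Tbxas1 lies right of 0 by gene TPM (0.89 and 0.68) and left of 0 by coding transcripts (-1.12 and -1.70).

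Across the 9 pairs without Hpgds, 6 were apart by the rule, 5 of them with the first gene higher and Alox5/Alox5ap with the second higher. With n = 2 the smallest p of an exact two-sided sign test is 0.5, so no test was made. The pairs that were not apart were Alox12/Alox15, Ptgs1/Tbxas1 and Ltc4s/Mgst2. On coding transcripts, where the rule has no interval condition, all 9 pairs were apart, with Ptgs1/Tbxas1 in the opposite direction.

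Between the libraries, no member at a mean TPM of 1 or more passed the rule of size. A gene was counted where it was over 2-fold apart in scaled CPM with separate TPM intervals, and this held for 0 of 6 members at a mean TPM of 1 or more, beside 2.61% of 10347 protein-coding genes (1.66% higher in replicate 1 and 0.947% higher in replicate 2). That split turned with the measure, to 166 genes higher in replicate 1 and 223 in replicate 2 by deposited TPM, and to 463 and 516 with no filter on TPM. Of those 6 members, 2 were higher in replicate 1 (Alox5 and Lta4h) and 4 in replicate 2 (Alox5ap, Ltc4s, Ptgs1 and Tbxas1). The differences of Alox5 (0.03), Alox5ap (-0.02) and Ptgs1 (-0.11) were smaller than the median absolute difference of 0.22 over these genes. Alox5ap was higher in replicate 1 by TPM (1.79), so this split is a count only. Ltc4s was just short of the rule at a log2 difference of -0.94, outside the central 95% of genes, which ran from -0.79 to 0.88. Lta4h (0.61) and Tbxas1 (-0.58) were inside it. Alox12, at -1.73 from 8 and 27 reads, was farther apart but under the TPM limit. The median log2 difference over these genes was 0.02 in scaled CPM and -0.08 in TPM.

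**Figure D4:**
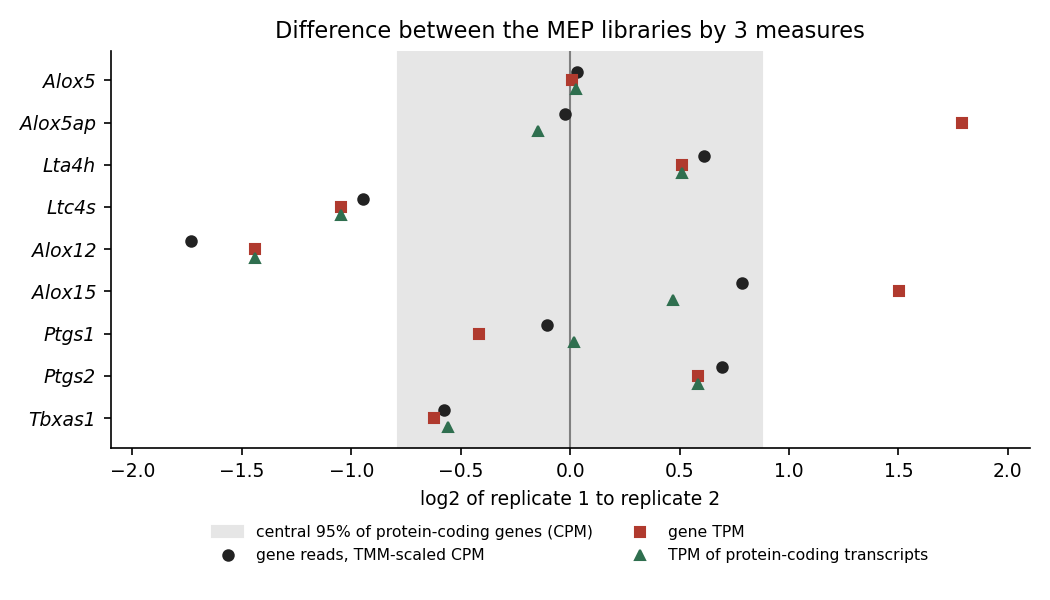
Log2 difference of replicate 1 to replicate 2 for 9 members by gene reads (scaled CPM, black circles), gene TPM (red squares) and TPM of coding transcripts (green triangles), with the central 95% of protein-coding genes in grey. The measures part for Alox5ap (-0.02, 1.79 and -0.15).

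Promoter sequences are shown for Lta4h, the most abundant member, and for Ltc4s and Tbxas1, which were both higher in replicate 2. In scaled CPM, Ptgs1 (-0.11) and Alox5ap (-0.02) were also higher in replicate 2, by less, and their promoters are not shown. The sequences shown are the 250 bases before the gene's start in RefSeq (GRCm38.p6), in which 8 of 10 members were matched. Alox5ap and Alox15 were not. Lta4h is at chr10:93453146-93453395 (plus strand), Ltc4s at chr11:50238533-50238782 (minus strand) and Tbxas1 at chr6:38918736-38918985 (plus strand). The Tbxas1 window lies inside the span of the gene in GENCODE M21, which begins at 38875404, so the starts in the annotations differ, and the Ltc4s window overlaps the M21 gene at its start. Letters run 5′ to 3′ on the gene's strand, and capitals mark matches on either strand to the motifs searched.
Lta4h: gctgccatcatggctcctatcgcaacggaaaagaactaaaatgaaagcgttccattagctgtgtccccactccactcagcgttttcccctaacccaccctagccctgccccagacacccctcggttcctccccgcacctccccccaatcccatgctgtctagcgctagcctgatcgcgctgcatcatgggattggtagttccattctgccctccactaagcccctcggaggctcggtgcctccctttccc
Ltc4s: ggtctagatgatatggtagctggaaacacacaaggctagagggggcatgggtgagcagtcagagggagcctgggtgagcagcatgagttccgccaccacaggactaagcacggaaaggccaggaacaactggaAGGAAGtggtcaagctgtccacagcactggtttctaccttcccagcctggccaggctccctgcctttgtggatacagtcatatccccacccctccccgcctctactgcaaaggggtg
Tbxas1: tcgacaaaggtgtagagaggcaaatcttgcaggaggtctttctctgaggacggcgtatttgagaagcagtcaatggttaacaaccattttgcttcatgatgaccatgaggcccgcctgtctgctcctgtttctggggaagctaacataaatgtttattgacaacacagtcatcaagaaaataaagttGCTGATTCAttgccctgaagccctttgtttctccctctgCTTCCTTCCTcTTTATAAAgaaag
The motifs searched were GCTGANTCA, bound by NF-E2 with small Maf proteins (N is any base). Beside it were AGATAA, a motif of the factors named after GATA, with AGGAAG for Ets factors, and TATAAA for the box where transcription complexes assemble. GCTGANTCA was found in the Tbxas1 window only, 63 bases before the start, and is in 1.02% of 32851 windows of the same length. AGGAAG, in 29.5% of windows, was found once each in Ltc4s, Ptgs1 and Ptgs2, and at 2 places each in Tbxas1 (overlapping) and Hpgds. TATAAA, in 12.4% of windows, was found in Tbxas1 only, where its matches on both strands overlap, and AGATAA, in 9.99%, was in none of the 8 windows. The Lta4h window held none of these and had 11 CpG dinucleotides against a median of 6 over all windows, while Ltc4s had 3 and Tbxas1 4. A match is only a run of letters, and none of these windows was tested for binding.

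The wider pathway was described from 11 further lists, of which 78 genes were measured and 39 (50%) had a TPM of 1 or more in both libraries, close to the 46.9% of all protein-coding genes. Among phospholipases A2, the enzymes that free arachidonic acid, 5 of 18 were detected and 8 had no reads. Pla2g12a was at 64.48 and 82.27 TPM, Pla2g6 at 26.05 and 39.47 TPM and Pla2g15, the lysosomal form, at 14.27 and 7.93 TPM. Pla2g4a, the cytosolic enzyme classically coupled to both arms, was at 1.11 and 1.29 TPM and is named although it was below the level of 10 TPM set for naming. Pla2g4b, also detected and below that level, was at 8.75 and 8.64 TPM, none of it on coding transcripts. Of the arachidonate handling genes, which bind the acid to coenzyme A, return it to phospholipids or, as lipases and hydrolases, act on lipids that carry it, 10 of 13 were detected. Mboat7, which puts arachidonic acid into phosphatidylinositol, was at 219 and 199 TPM, Lpcat3 at 54.4 and 47.6 TPM, Acsl5 at 32.8 and 33.9 TPM and Acsl1 at 17.5 and 16.7 TPM. Daglb, a diacylglycerol lipase, was at 15.04 and 8.68 TPM. On coding transcripts Daglb was at only 1.77 and 1.28 TPM, Lpcat3 at 23.3 and 19.6 TPM and Mboat7 at 149 and 124 TPM.

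Of the other synthases, 4 of 7 for prostanoids and 0 of 4 other lipoxygenases were detected. Ptges3, a co-chaperone also named as a prostaglandin E synthase, was at 201 and 177 TPM, and Cbr1, a carbonyl reductase that acts on prostaglandins, was at 29.7 and 38.2 TPM. All 3 glutathione transferases of the Mgst group were detected, none at a mean of 10 TPM. All 4 genes for peroxide tone and 5-lipoxygenase partners were detected. The glutathione peroxidases Gpx4 (1225 and 1170 TPM) and Gpx1 (731 and 610 TPM) remove lipid and hydrogen peroxides. Both of them and Cotl1, a binding partner of 5-lipoxygenase (578 and 479 TPM), were above every member in gene TPM. On coding transcripts Gpx4 was at 244 and 249 TPM, below Lta4h in replicate 1 (307 TPM).

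Of the leukotriene conversion and breakdown genes 3 of 6 were detected, among them Ggt5, which converts leukotriene C4 to D4, at 9.47 and 11.79 TPM. Cyp4f18, a leukotriene B4 hydroxylase of neutrophils, was at 27.4 and 7.42 TPM and was 4.23-fold higher in replicate 1 in scaled CPM. Of the prostaglandin breakdown genes 3 of 4 were detected, and of the export and uptake genes 2 of 3, with Abcc4 at 12.8 and 10.2 TPM. Of the leukotriene and lipoxin receptors 1 of 7 was detected, Ltb4r1, the high-affinity leukotriene B4 receptor, at 46.5 and 33.4 TPM. Of the prostanoid receptors 4 of 9 were detected, with Ptger4, a prostaglandin E2 receptor, highest at 15.7 and 22.7 TPM. Of the 41 pathway genes outside the members at a mean TPM of 1 or more, 25 were higher in replicate 1 and 16 in replicate 2. Past the rule of 2-fold with separate intervals were Cyp4f18 and Ptgr1 (2.08-fold higher in replicate 1) and Acsl6 (2.19-fold higher in replicate 2), 3 of 41 beside the 2.61% of all genes. Ptgr1 and Acsl6, at means below 10 TPM, were named after their values were seen. The granulocyte and monocyte and the B cell markers, given above, were higher in replicate 1 as Cyp4f18 and Ltb4r1 were, and their part in these differences was not tested.

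**Figure D5:**
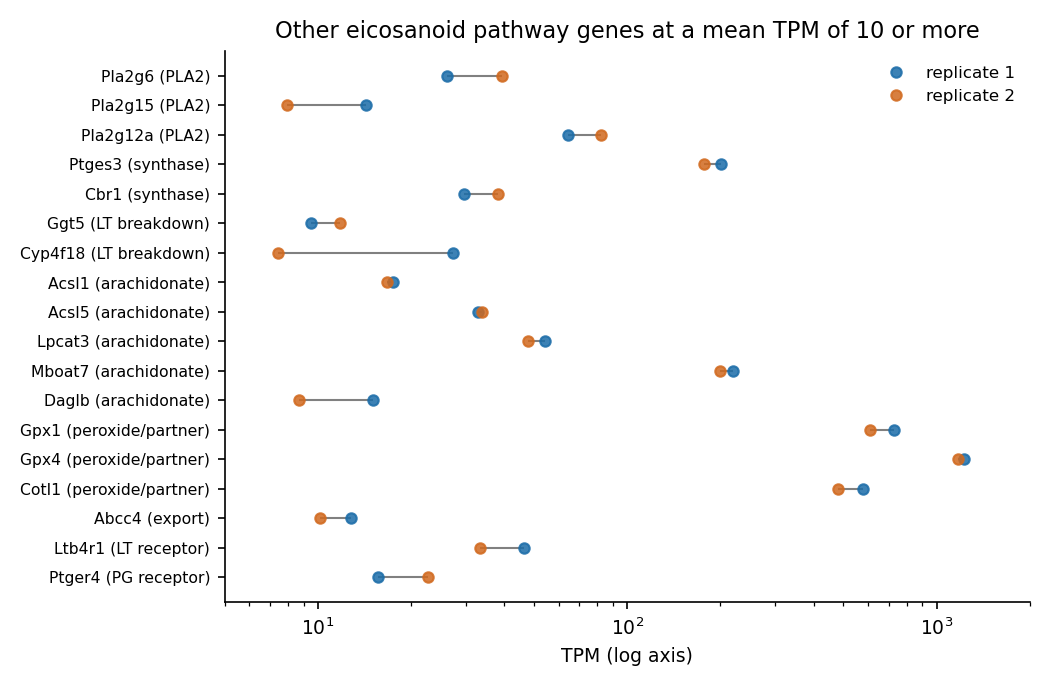
TPM (log axis) in replicate 1 (blue) and replicate 2 (orange) of the 18 pathway genes outside the members with a mean of 10 TPM or more, with the list in brackets and a line joining the libraries. By gene TPM, Gpx4 stands highest at 1225 and 1170 TPM (244 and 249 TPM on coding transcripts). Cyp4f18 has the widest gap at 27.4 and 7.42 TPM.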

How the data were processed

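Poly(A) RNA-seq of 2 MEP libraries was used as deposited. Per the labels and the text file deposited with each sample, the assembly was mm10 and the annotation GENCODE M4; the aligner, the quantifier and their strand handling were not given in the sources used here, and the column names are those RSEM writes. Per the file headers, the authors deposited an expected count for each gene and each transcript; it may be fractional. The deposited TPM and FPKM are scaled for length and library. Deposited percent values hold the part of a gene's level on each transcript; shares printed here were recomputed from TPM. The bounds of the authors' TPM intervals were read as a signal; their level is not stated and they cover quantification error only.

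Symbols, classes and GRCm38 coordinates came from GENCODE M21, matched by identifier without version (42462 of 43346); for members, 32 of 33 transcripts matched and 29 had the same length. Counts of all 10 members were whole (within 0.005). Expected counts, rounded, were scaled by TMM factors (0.98 and 1.02; edgeR 4.0.16, R 4.3.3), with a prior count of 2 for log2 CPM; 8 of 10 members passed filterByExpr, and Alox12 and Hpgds did not. DESeq2 1.42.0 gave other size factors. Other steps used Python 3.11.15, numpy 2.4.6 and pandas 2.3.3. The fold in scaled CPM was tried on simulated counts, in which no gene of few reads was changed. The interval condition of the rule was not part of that trial. With 1 group no test was made. The rule for members uses no measured value, but members, lists and alternatives were proposed with earlier results of these data known. Named were the 10 members, pathway genes at a mean of 10 TPM or more and, of marker lists, up to 3 of the highest, beside markers with no reads. The 3 pairs with Hpgds were left out for its counts. List symbols without a match were not analysed here. Alternatives changed unit, pseudocount, threshold, scaling and filter or left out 1 library; coding transcripts only, and the largest transcript by reads, were added after seeing the data.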

Additional observations from a re-analysis of the deposited data

How the results depend on the processing

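No paired analysis was possible because there is 1 group, and leaving out a library leaves no library difference. Detection of 6 members was the same under every alternative run. Counting coding transcripts only lowered the members' median from 6.98 to 4.27 TPM. It also turned Ptgs1/Tbxas1 to a mean log2 ratio of -1.41, since most Ptgs1 TPM is on a noncoding transcript. In counts not corrected for length, Alox5/Alox5ap was 0.18, Ptgs1/Tbxas1 -0.15 and Ltc4s/Mgst2 -0.056. Of genes apart between libraries, 270 became 105 with a mean TPM of 5 or more and 979 with no filter, as fewer or more genes entered. The share of these higher in replicate 1 was 63.7%, against 75.2% and 47.3% under those filters and 42.7% by TPM. Members past that rule were 0, 1 by TPM (Ltc4s) and 1 with no filter (Alox12). Alox5ap over Ltc4s was no longer apart in replicate 2 alone, and Ptgs1 was 3.38 TPM on coding transcripts. Among further values of single genes and pairs, 145 kept direction and call within the spread, 13 moved by more, and the remainder were changed calls or directions of pairs. Those 145 include the 10 levels and 9 transcript shares with either library left out. With n = 2 each value lies within 1 SD of the mean, so these outcomes were fixed in advance and are no check. By coding transcripts, with no interval condition, 9 of 9 pairs were apart against 6. Alox12/Alox15 was also apart without replicate 2 and Ltc4s/Mgst2 without replicate 1. The libraries limit precision to n = 2, and below about 1 TPM values rest on few reads.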
